A study of Mus musculus with 8 samples.

Results

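The lysosome-associated membrane protein (LAMP) family was examined through 3 genes, 6330527O06Rik, Lamp1 and Lamp2, among 15794 genes listed in the expression tables of cultured mouse hippocampal neurons. 6330527O06Rik is described in the tables as a LAMP family protein, and RefSeq (GRCm38.p6) lists that symbol as a synonym of Lamp5. It was chosen by its measured fold changes in these same tables, so its levels and fold changes are given as a description with no test, and Lamp1 and Lamp2 were added as its relatives. All 3 genes had values in every group.

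The study measured RNA by paired-end sequencing in 8 samples, 2 in each of 4 groups, of hippocampal neurons collected at 14 days in vitro (DIV). The nuclear rescue and the cytoplasmic rescue received siRNA against Rbfox1 and Rbfox3 and an adeno-associated virus carrying a Flag-tagged Rbfox1 splice isoform, labelled N or C and siMt. The knockdown group received the same siRNA with a virus carrying EGFP, and the control group received non-targeting siRNA with the EGFP virus. In all 4 groups the virus was AAV2/9 with the SynI promoter, given at 9 DIV for 12 hours at 1500 genomic copies per cell, and the siRNA was given from 10 DIV for 4 days. A synapsin promoter is active in neurons, while the siRNA was added to the whole culture. Whether samples sharing a group are separate cultures is not stated in the labels. The deposited tables hold 1 FPKM value per group, a level scaled by transcript length and library size, so no spread between samples can be given, and the depth of each library is unknown. Each error below is the implied error, the deposited log2 fold change divided by the authors' deposited test statistic, which is not a measured spread.

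Lamp1 and Lamp2 are heavily glycosylated proteins with a single membrane span that make up much of the lysosomal membrane, and one splice form of Lamp2 is the receptor for chaperone-mediated autophagy. Lamp5, also called BAD-LAMP, is found in the mouse brain in neurons and sits in endosomal compartments rather than in classical lysosomes. Its relative in the worm Caenorhabditis elegans, UNC-46, sorts the vesicular GABA transporter to synaptic vesicles. In mouse cortex and hippocampus Lamp5 also marks a class of GABAergic interneurons, many of them neurogliaform cells.

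The Rbfox1 and Rbfox3 transcripts were low in the knockdown group. Rbfox1 measured 38.2 FPKM in the nuclear rescue, 16.1 in the cytoplasmic rescue, 1.94 in the knockdown group and 25.7 in control. Rbfox3 measured 1.53, 1.59 and 1.59 FPKM in the nuclear rescue, the cytoplasmic rescue and the knockdown group, and 12.4 in control, so it stayed low in both rescues. Neuronal and glial markers were present together. Of the neuron markers, Snap25, a synaptic fusion protein, measured 352 FPKM in the nuclear rescue, 389 in the cytoplasmic rescue, 323 in the knockdown group and 456 in control. Tubb3, a neuronal tubulin, measured 388, 341, 408 and 291 FPKM in these groups, and neither gene was called. The neuron markers Syt1 and Map2 differed less and were not called. Syt1 measured 50.9, 47.2, 46.4 and 49.3 FPKM in these groups, and Map2 149, 144, 150 and 145. The summed FPKM of 5 astrocyte markers was 923, 913, 1046 and 1047 in the same groups, so the cultures also held astrocyte RNA. Most of this sum was Gfap, at 487, 477, 570 and 569 FPKM, and Slc1a3, at 313, 314, 347 and 349. None of the 5 was called in any comparison.

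6330527O06Rik, on chromosome 2 at 135883663 to 135895653 (mm9), measured 5.27 FPKM in the nuclear rescue, 3.72 in the cytoplasmic rescue, 1.80 in the knockdown group and 3.68 in control. Its level was lowest in the knockdown group and highest in the nuclear rescue, and the cytoplasmic rescue and control were nearly level. The knockdown group stood at 48.8% of control, or -1.04 on the log2 scale in the authors' deposited table (implied error 0.190). The cytoplasmic rescue stood 1.05 above the knockdown group on the log2 scale (implied error 0.188) and the nuclear rescue 1.55 above it (implied error 0.182), both in the authors' deposited tables. As a share of control, the nuclear rescue was at 143% and the cytoplasmic rescue at 101%. All tables gave the same knockdown FPKM for each of the 15382 genes listed in all 3, so the 4 group values are on one scale and a rescue can be set beside control, with no error used here for that ratio. The 3 fold changes share the knockdown value, so a low value there alone would set all 3 apart from 0 in these directions. In bulk RNA, fewer cells that express a gene and less RNA per cell cannot be told apart.

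**Figure D1:**
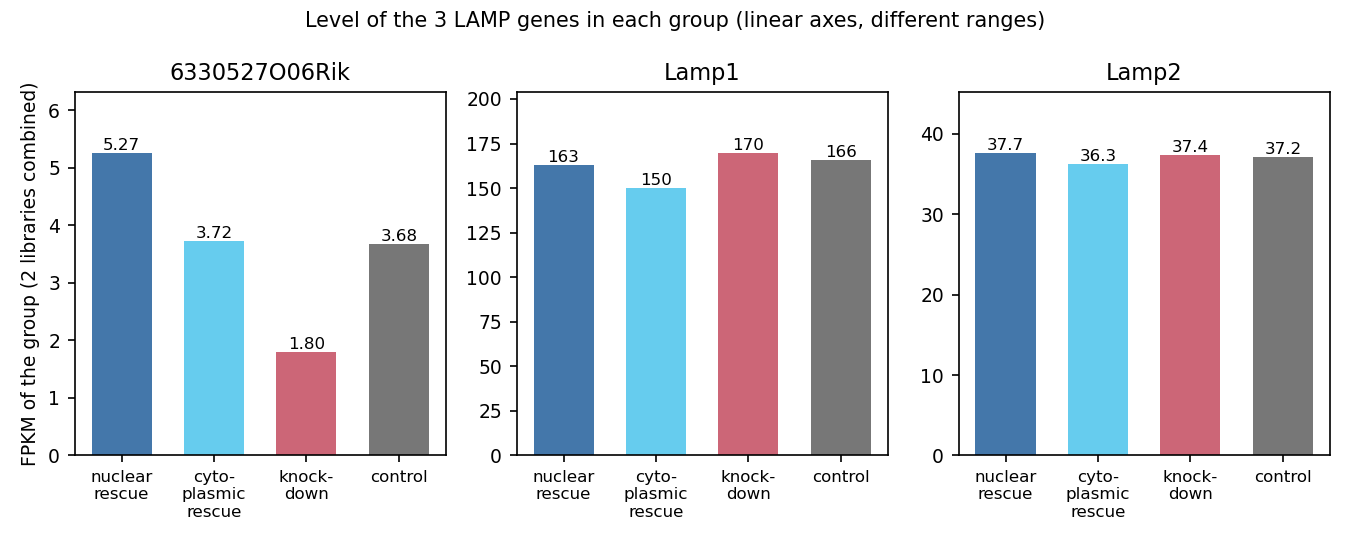
FPKM (vertical axes, linear from 0, a different range in each panel) of 6330527O06Rik, Lamp1 and Lamp2 in the 4 groups, with 1 deposited value per group and so no error bars. 6330527O06Rik is lowest in the knockdown group at 1.80, while Lamp1 stays between 150 and 170 and Lamp2 between 36.3 and 37.7.

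The authors' deposited tables called 1 of the 3 members, 6330527O06Rik, at a q below 0.05 in each comparison. It was called lower in the knockdown group, as were 1.58% of 15598 genes, and higher in the cytoplasmic rescue, as were 0.333% of 15598 genes. It was called higher in the nuclear rescue, as were 0.071% of 15489 genes. These calls were among the values by which the gene was chosen.

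Lamp1 encodes the major lysosomal membrane glycoprotein and lies on chromosome 8 at 13159135 to 13175338 (mm9). It measured 163 FPKM in the nuclear rescue, 150 in the cytoplasmic rescue, 170 in the knockdown group and 166 in control. It stood between percentile 96.8 and percentile 97.2 of the genes listed, whereas 6330527O06Rik stood between percentile 28.0 in the knockdown group and percentile 45.1 in the nuclear rescue. The knockdown group differed from control by 0.04 on the log2 scale, with a 95% interval from the implied error of -0.28 to 0.36 (p = 0.816 in the authors' deposited table). The cytoplasmic rescue differed from the knockdown group by -0.18 (interval -0.53 to 0.18, p = 0.324 in the authors' deposited table) and the nuclear rescue by -0.06 (interval -0.51 to 0.39, p = 0.790 in the authors' deposited table). All 3 intervals span 0, so no difference of Lamp1 was detectable with these errors.

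Lamp2, on chromosome X at 35758241 to 35809632 (mm9), encodes the lysosomal glycoprotein whose splice forms differ in their last exon. It measured 37.7 FPKM in the nuclear rescue, 36.3 in the cytoplasmic rescue, 37.4 in the knockdown group and 37.2 in control, which is the narrowest range of the 3 genes. The knockdown group differed from control by 0.01 on the log2 scale (interval -0.30 to 0.32, p = 0.948 in the authors' deposited table). The cytoplasmic rescue differed from the knockdown group by -0.04 (interval -0.38 to 0.29, p = 0.794 in the authors' deposited table) and the nuclear rescue by 0.01 (interval -0.34 to 0.36, p = 0.956 in the authors' deposited table). The authors' q for Lamp1 and Lamp2 was 0.999995 in every comparison. These are values per gene, so a shift between the Lamp2 splice forms would not show in them.

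Per length of transcript, Lamp1 was the most abundant of the 3 genes and 6330527O06Rik the least in every group. The ratio of Lamp1 to 6330527O06Rik in FPKM was 30.9 in the nuclear rescue, 40.3 in the cytoplasmic rescue, 94.7 in the knockdown group and 45.0 in control. The ratio of Lamp1 to Lamp2 was 4.32, 4.14, 4.54 and 4.46 in the same groups. The first ratio thus differed about as 6330527O06Rik itself did, while the pair of lysosomal genes kept a near-constant ratio.

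**Figure D2:**
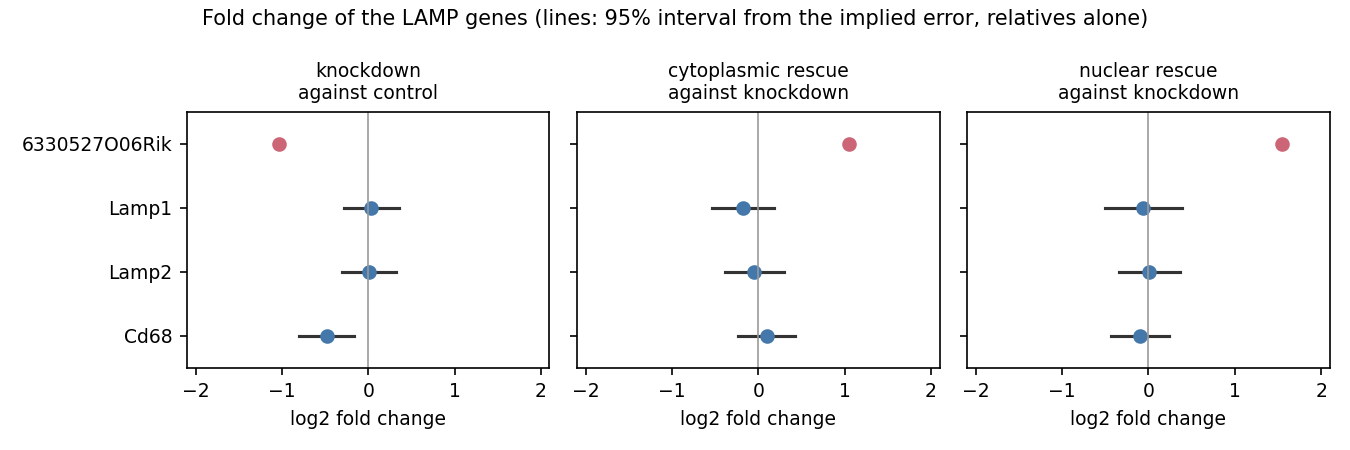
Deposited log2 fold change (horizontal axis) of 6330527O06Rik, Lamp1, Lamp2 and Cd68 in the 3 comparisons, with lines for the 95% interval from the implied error of the relatives and none for 6330527O06Rik, which was chosen by these values. The intervals of Lamp1 and Lamp2 include 0 in each comparison. That of Cd68 lies below 0 in the knockdown group (-0.80 to -0.16) and includes 0 in both rescues. The point of 6330527O06Rik lies at -1.04, 1.05 and 1.55.

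Between the rescues, 6330527O06Rik measured 5.27 FPKM with the nuclear isoform and 3.72 FPKM with the cytoplasmic isoform. The difference was 0.50 on the log2 scale, nuclear minus cytoplasmic, with an error of 0.262 from both tables added in squares. Rbfox1 RNA was also higher there, at 38.2 FPKM in the nuclear rescue and 16.1 in the cytoplasmic rescue, so the isoform and the amount of Rbfox1 RNA cannot be told apart. Lamp1 differed by 0.12 (interval -0.45 to 0.69) and Lamp2 by 0.05 (interval -0.43 to 0.54). A z test of this difference across all genes, with Benjamini-Hochberg adjustment, gave an adjusted p of 1.0 for Lamp1 and for Lamp2, and it called 0.026% of 15365 genes. The error counts the shared knockdown group in both tables, which makes the test conservative.

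Of the other family members, Cd68, the macrophage and microglia member of the family known as macrosialin, measured 8.72 FPKM in the nuclear rescue, 9.99 in the cytoplasmic rescue, 9.34 in the knockdown group and 13.0 in control. Its log2 fold change in the knockdown group was -0.48 with an implied error of 0.164 (interval -0.80 to -0.16). It was not called (authors' deposited q = 0.181). A list of 8 microglia markers, Cd68 among them, had 7 measured genes. In the knockdown group 3 of them were called lower (Csf1r, C1qa and C1qc), as were 1.58% of all genes. The other 4 were not called. At the authors' unadjusted p below 0.05, all 7 were lower there, or 100%, against 5.46% of all genes. Their median log2 fold change was -0.89. None was at 0 in any group. Without Cd68, the summed FPKM of the other 6 was 5.19 in the nuclear rescue, 6.84 in the cytoplasmic rescue, 5.19 in the knockdown group and 9.37 in control. With it the sums were 13.9, 16.8, 14.5 and 22.4 in these groups. The part of microglial RNA in the Cd68 value was not tested. Lamp3, the family member of dendritic cells, was not analysed here.

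The splicing tables listed no cassette exon of the 3 genes, by symbol or by position within their loci. They list called exons alone, 214 for the knockdown against control, 150 for the cytoplasmic rescue and 318 for the nuclear rescue, so an unlisted exon may be unchanged, unmeasured or of another type. The alternative last exons of Lamp2 are not cassette exons.

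The annotated 3' untranslated regions (UTRs) were searched for the Rbfox motif TGCATG and its shorter core GCATG, which lies within it, on the transcript strand alone. Rbfox proteins bind this motif in introns and, in their cytoplasmic form, in 3' UTRs. Sequences are those of GENCODE M21 (GRCm38). The protein-coding transcript Lamp5-201 spans 11991 bases of the genome, the same length as the locus of 6330527O06Rik in the tables. It has 280 codons, against 406 for Lamp1-201 and 415 or 416 for the 3 Lamp2 transcripts. Its 3' UTR of 726 bases holds TGCATG 1 time, starting at base 521 after the stop codon. Of the first 726 bases of the 3' UTR in 12304 genes with one that long, 21.4% hold the hexamer, so a match is common at this length. The 780 bases of the Lamp1-201 3' UTR hold neither motif, where 23.0% of windows of that length hold the hexamer. The Lamp2 transcripts differ, with 0 hexamers in the 370 bases of Lamp2-201, 3 in the 2205 bases of Lamp2-202 (52.5% of such windows hold one) and 1 in the 782 bases of Lamp2-203 (23.1%). For Lamp2-201, 11.4% of windows of its length hold one. The shorter core occurs 2 times in Lamp5-201 (48.4% of windows hold it), 6 times in Lamp2-202 (86.4%) and 2 times in Lamp2-203 (50.7%), full hexamers included. The sites are shown because they differ between the 3 genes, 30 bases each, 5' to 3', with the hexamer in capitals and its first base counted from the stop codon.
Lamp5-201, base 521: cggctggcattcTGCATGtctagtgattgt
Lamp2-202, base 307: gtttcttctgccTGCATGaaattgagtttg
Lamp2-202, base 1417: catataggcactTGCATGttagcatgttca
Lamp2-202, base 1566: gcaacagggaacTGCATGgccaacttaaag
Lamp2-203, base 575: acccagtgatacTGCATGcatatatgaagt
A match is a description of the letters and not a measured binding site. The deposited Lamp2 locus spans 51392 bases, against 51393 for Lamp2-201, 36948 for Lamp2-202 and 55098 for Lamp2-203. The levels are per gene, so which Lamp2 transcripts were present is unknown. Any part of the motif in the differences was not tested.

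**Figure D3:**
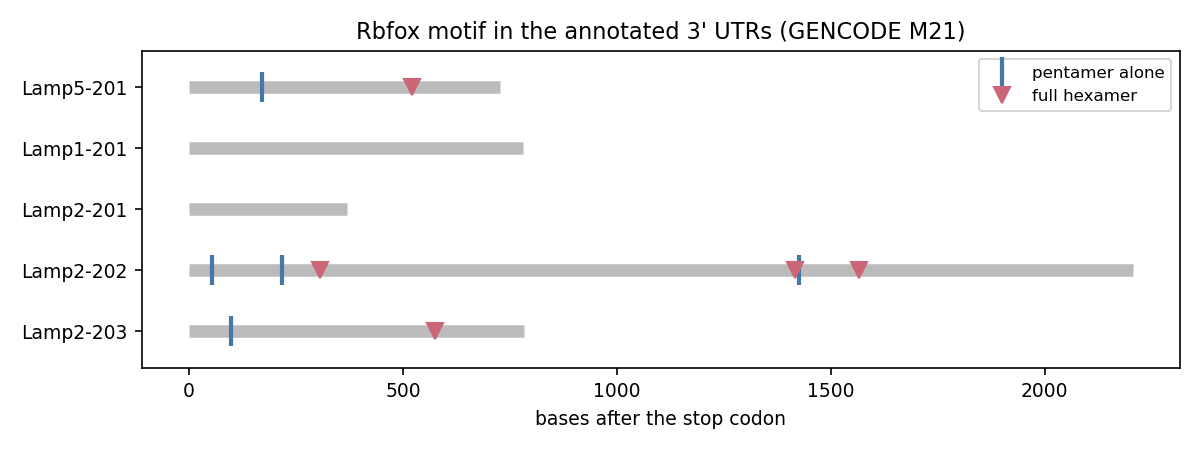
Annotated 3' UTRs of the protein-coding Lamp5, Lamp1 and Lamp2 transcripts as grey bars, by bases after the stop codon (horizontal axis), with triangles for the full hexamer and ticks for the shorter core alone. Lamp5-201 holds 1 hexamer at base 521, Lamp1-201 and Lamp2-201 hold none, and Lamp2-202 holds 3.

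Lists of lysosome, autophagy and GABA release genes were set beside the family. Across 145 measured genes of 8 lists, Cd68 included, the authors' deposited table called 2 lower (Gaa, a lysosomal hydrolase, and Gad2, of the GABA release list) and 0 higher in the knockdown group at q below 0.05, where 1.58% and 0.776% of all genes were called (2.35% in either direction). Their median log2 fold change was -0.06, against 0.02 for all genes. At an unadjusted p below 0.05, 6.90% were lower and 2.07% higher (10 and 3 genes), against 5.46% and 5.44% of all genes. In the cytoplasmic rescue 1 of the 145 was called, a lower one, where 0.173% of all genes were called lower and 0.506% in either direction. At an unadjusted p below 0.05, 2.07% were lower and 0.69% higher (3 genes and 1 gene), against 3.47% and 1.87% of all genes, and the median was -0.05, against -0.06 for all genes. In the nuclear rescue the authors' deposited Cufflinks table called 0 of them, where 0.0387% of all genes were called lower and 0.11% in either direction. There, 0.69% were lower and 1.38% higher at an unadjusted p below 0.05 (1 gene and 2 genes), against 0.484% and 0.562% of all genes, and the median was -0.00, against -0.02 for all genes.

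Among lysosomal hydrolases and their helpers, Gaa, which breaks down glycogen in the lysosome, fell to 30.7 FPKM in the knockdown group, against 44.6 in control (log2 fold change -0.54, implied error 0.134, authors' deposited q = 0.00913). It measured 33.3 FPKM in the nuclear rescue and 30.5 in the cytoplasmic rescue and was called in neither. It was the only call among the 39 measured hydrolase genes (2.56%, against 1.58% of all genes called lower), and the list median was -0.06. Psap, the precursor of the saposins and the most abundant of the list, measured 391, 371, 390 and 414 FPKM in the nuclear rescue, the cytoplasmic rescue, the knockdown group and control.

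None of the 26 lysosomal membrane genes was called in any comparison. Their summed FPKM was 453 in the nuclear rescue, 415 in the cytoplasmic rescue, 448 in the knockdown group and 449 in control. Laptm4a, the most abundant, measured 107, 89.2, 102 and 99.7 FPKM in these groups. In the cytoplasmic rescue 84.6% of this list lay below 0 (median -0.12), and 82.1% of the hydrolases and their helpers (median -0.11). Of all genes, 67.0% lay below 0 there (median -0.06). For the membrane list the share was 57.7% in the knockdown group, against 44.7% of all genes, and 50.0% in the nuclear rescue, against 56.1%.

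The proton pump that acidifies the lysosome had no call among 18 measured subunit and accessory genes. The list median in the knockdown group was -0.13, against 0.02 for all genes, and 77.8% of the list lay below 0, against 44.7% of all genes. Atp6v1e1, the most abundant of the list in control, measured 242 FPKM in the knockdown group and 318 in control and stood at -0.39 on the log2 scale (implied error 0.151, authors' deposited q = 0.335). In the rescues the list median was 0.00 in the nuclear and -0.02 in the cytoplasmic one.

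Among 23 autophagy genes, Rab7, a small GTPase of late endosomes and lysosomes, fell to 26.1 FPKM in the cytoplasmic rescue, against 38.3 in the knockdown group (log2 fold change -0.56, implied error 0.154, authors' deposited q = 0.0329). This call was lost at q below 0.01 and with q recomputed within the table. It was also lost with an FPKM minimum of 1, a setting that keeps Rab7 and recomputes q among the genes kept. Rab7 measured 36.3 FPKM in the nuclear rescue and 33.1 in control. Hspa8, the chaperone that brings substrates to Lamp2 and the most abundant gene of the list, measured 2042, 2120, 2089 and 2061 FPKM in the nuclear rescue, the cytoplasmic rescue, the knockdown group and control. No gene was called among 14 lysosome regulators or 20 sorting genes. Lamtor3, a scaffold of nutrient signalling at the lysosome, was the most abundant of the regulators at 54.6 FPKM in control, and Ap2m1, a clathrin adaptor subunit, the most abundant of the sorting genes at 278.

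**Figure D4:**
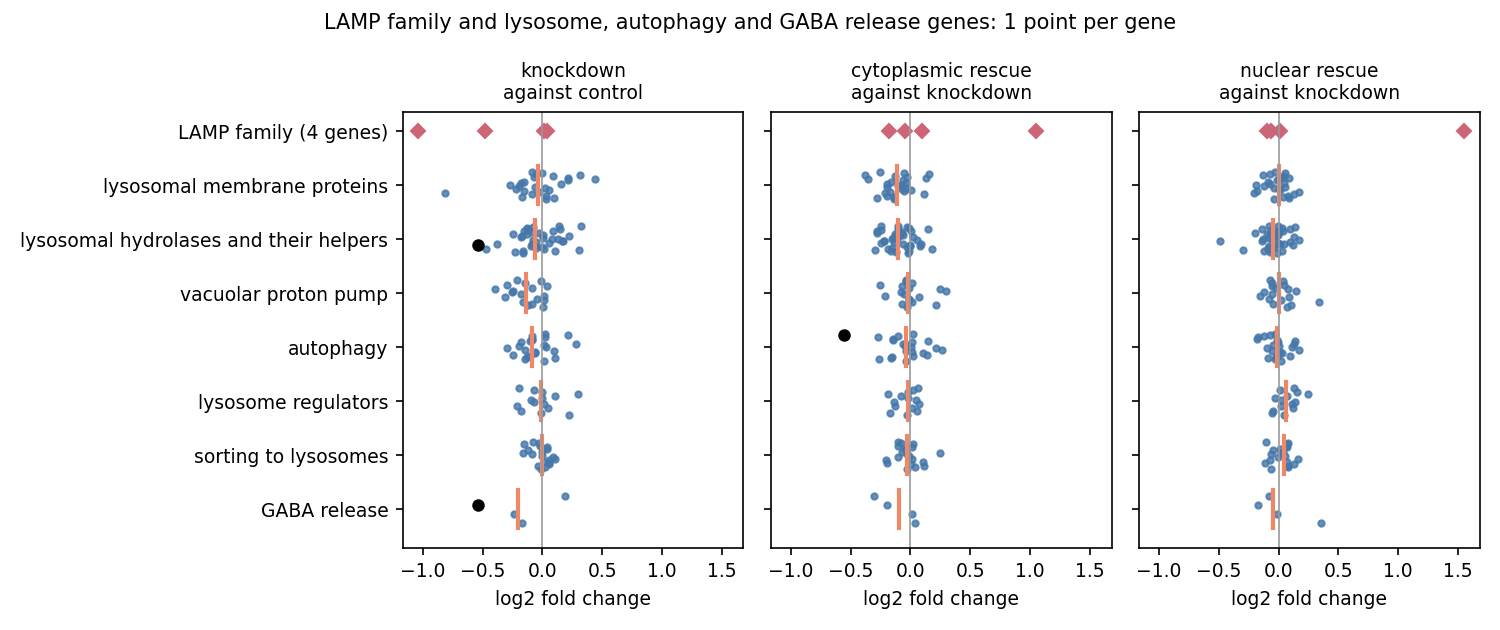
Deposited log2 fold change (horizontal axis) of the LAMP family genes (diamonds: 6330527O06Rik, Lamp1, Lamp2 and Cd68) and of 7 gene lists (1 point per gene, orange line at the list median, large black points for the authors' calls) in the 3 comparisons. The 6330527O06Rik diamond lies at -1.04, 1.05 and 1.55, while the list genes lie between -0.81 and 0.44 in the knockdown group.

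Cassette exons of 2 list genes appeared in the splicing tables. A 48-base exon of Atg16l1, which helps to attach LC3 to the autophagosome membrane (chromosome 1, 89671656 to 89671703), had an inclusion fraction of 0.654 in the knockdown group, against 0.815 in control, and 0.815 in the cytoplasmic rescue. Reads on the junction that skips it numbered 65 in the cytoplasmic rescue, 105 in the knockdown group and 50 in control. An exon of Slc17a5, the lysosomal sialic acid exporter (chromosome 9, 78422457 to 78422560), had an inclusion fraction of 0.661 in the nuclear rescue, against 0.816 in the knockdown group, with 8 reads on the skipping junction in the nuclear rescue and 2 in the knockdown group. The tables list called exons, and no test was added.

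Genes of GABA release and markers of LAMP5 interneurons were then set beside 6330527O06Rik. Gad2, a GABA-synthesising enzyme, fell to 16.8 FPKM in the knockdown group, against 24.4 in control (log2 fold change -0.54, implied error 0.133, authors' deposited q = 0.00813). It measured 14.9 FPKM in the nuclear rescue and 14.6 in the cytoplasmic rescue and was called in neither. Gad1, the most abundant of the 4 GABA release genes, measured 73.7, 75.3, 74.5 and 87.8 FPKM in the nuclear rescue, the cytoplasmic rescue, the knockdown group and control and was not called. Slc32a1, the vesicular GABA transporter, measured 10.7, 8.55, 8.32 and 9.36 FPKM in these groups and was not called.

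Of the 9 other markers of LAMP5 interneurons, 1 was called lower in the knockdown group, as were 1.58% of all genes. Npy, which encodes neuropeptide Y, measured 41.9 FPKM in the nuclear rescue, 57.0 in the cytoplasmic rescue, 38.6 in the knockdown group and 155 in control. It was called higher in the cytoplasmic rescue than in the knockdown group (log2 fold change 0.56, authors' deposited q = 0.0220), as was 6330527O06Rik. In that comparison 0.333% of all genes were called higher, and the Npy call does not hold at q below 0.01. Npy was not called in the nuclear rescue. Npy stood at 27.1% of control in the nuclear rescue and 36.9% in the cytoplasmic rescue, where 6330527O06Rik stood at 143% and 101%. The other 8 markers were not called in any comparison. In the knockdown group they ran from 70.0% of control for Sv2c, through 76.6% for Adarb2, 79.2% for Cxcl14, 90.9% for Reln, 94.9% for Ndnf, 102% for Id2 and 104% for Nos1, to 121% for Kit. At an unadjusted p below 0.05, 4 of the 9 were lower in the knockdown group (Npy, Sv2c, Cxcl14 and Adarb2), or 44.4%, against 5.46% of all genes. Sv2c measured 1.52 FPKM in the nuclear rescue, 1.74 in the cytoplasmic rescue, 1.41 in the knockdown group and 2.02 in control, and Adarb2 measured 2.34, 2.54, 2.08 and 2.71 in these groups. The 9 markers had a median log2 fold change of -0.14 in the knockdown group, 0.01 in the cytoplasmic rescue and 0.03 in the nuclear rescue. None was at 0 in any group, and their summed FPKM was 134 in the nuclear rescue, 148 in the cytoplasmic rescue, 137 in the knockdown group and 260 in control, much of it Npy. The list of markers of other interneurons also held called genes in the knockdown group. Of its 13 genes, 3 were called lower (Cck, Gad2 and Vip) and 1 higher (Calb2), where 1.58% and 0.776% of all genes were called. It includes Gad1, Gad2 and Slc32a1, GABA release genes given above, which are not limited to classes other than LAMP5 interneurons. The summed FPKM of all 13 was 423 in the nuclear rescue, 417 in the cytoplasmic rescue, 429 in the knockdown group and 453 in control. Without Calb2, the summed FPKM of the other 12 was 261 in the nuclear rescue, 281 in the cytoplasmic rescue, 257 in the knockdown group and 363 in control. Much of this sum was Cck, at 126, 147, 122 and 194 FPKM in these groups. Calb2, a calcium-binding protein, measured 161, 137, 171 and 90.1 FPKM in these groups. Lower values were not limited to interneuron markers. Of 5 measured markers of excitatory neurons, 4 lay below 0 in the knockdown group and 1 above, with a median log2 fold change of -0.19. Neurod2 alone of them was called lower (authors' deposited q = 0.0303). At an unadjusted p below 0.05, 2 of the 5 were lower, or 40.0%. The part of cell numbers in the 6330527O06Rik values was not tested.

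**Figure D5:**
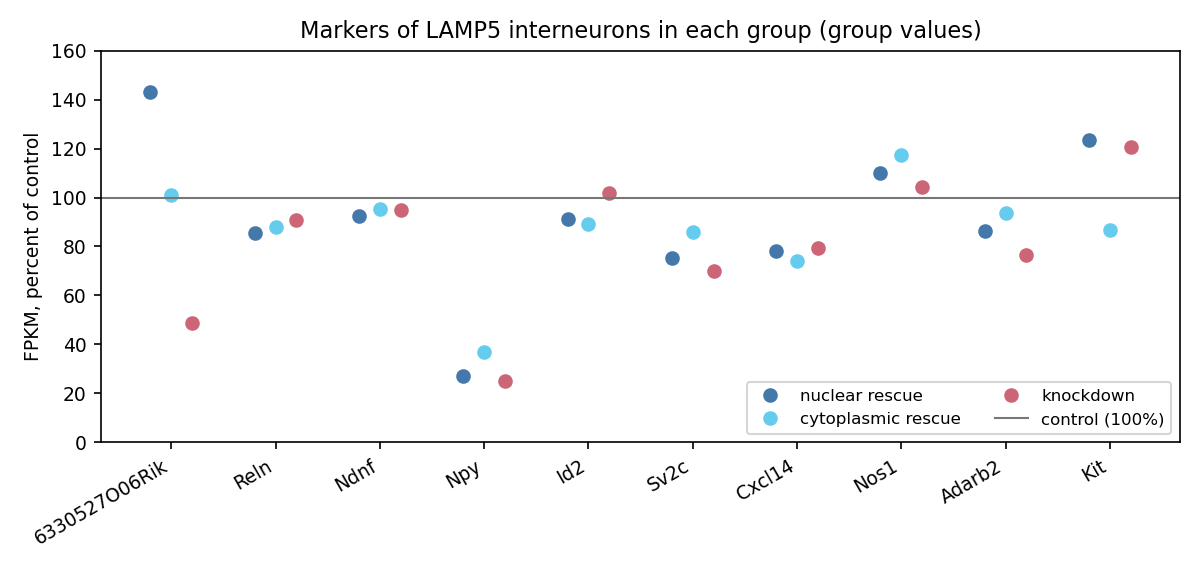
FPKM as a percentage of control (vertical axis) for 6330527O06Rik and 9 other LAMP5 interneuron markers in the nuclear rescue, the cytoplasmic rescue and the knockdown group, with the grey line at control. 6330527O06Rik lies at 143%, 101% and 48.8%, and Npy at 27.1%, 36.9% and 24.9%.

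The 5 genes whose 3 fold changes lay nearest to those of 6330527O06Rik, by Euclidean distance among 12598 genes with FPKM of at least 1 in a group, were Mir684-2, Scarna10, Mir1901, Snora52 and Snord116l2. All 5 encode small RNAs, with distances of 0.778 to 0.950, and their implied errors ran from 0.567 for Snord116l2 to 12.4 for Snora52 in the knockdown comparison. None was called in any table. Among 11931 protein-coding genes, a restriction added after these values were seen, the nearest was Nefm, a neurofilament subunit, at a distance of 1.04. Nefm measured 12.6 FPKM in the nuclear rescue, 12.1 in the cytoplasmic rescue, 8.02 in the knockdown group and 13.8 in control. It was called lower in the knockdown group (authors' deposited q = 0.00171) and in neither rescue comparison. The next were 1700019N12Rik, Rassf5, Spink10 and the neurofilament gene Nefh, at distances of 1.06 to 1.15.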

How the data were processed

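RNA sequencing of 8 samples in 4 groups was analysed from 3 expression and 3 splicing tables. The submitters' processing notes name CASAVA, Cufflinks and the mm9 build, without versions. The authors deposited FPKM per group (2 libraries combined), a log2 fold change, a test statistic (score), a p-value and a q-value. The splicing tables, from SpliceTrap per the names of the deposited tables, hold the authors' deposited inclusion fraction, a splice change score, a p-value and skipping-junction read counts for called cassette exons. In all, 66 other numeric columns of the tables were not used. Libraries did not keep strand, per the labels' protocols, so overlapping antisense RNA cannot be told apart. Cufflinks estimates levels per gene, so the reads of splice forms are combined.

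The deposited fold change matched the FPKM ratio within 2.498e-04, and p the two-sided normal tail of the statistic, which gave the implied error. Calls are the authors' q below 0.05. The deposited q appears to be adjusted over the 3 comparisons together, since a like p carries a like q in different ones. The authors' deposited p of 0.0115 goes with q = 0.378 for Cxcl14 in the knockdown group and for Slc32a1 in the nuclear rescue. The tables hold group values, so the limma test planned for library values was left out. A z test over all genes compared the rescues, with Benjamini-Hochberg adjustment and checked on simulated data. Locus starts were counted from 0, since 3611 spans then equal the RefSeq gene length (320 otherwise), and are printed from 1. Named genes are the members, called list genes, the most abundant gene of each list, Rbfox1 and Rbfox3, and the 5 nearest patterns; others, the cell type markers among them, were named after their values were seen, and marker sums without Calb2 or Cd68 were likewise added afterwards. Members and lists were chosen with earlier results of these data known. List symbols were matched through RefSeq synonyms, and Glb1 and Lamp3 were not matched. Python 3.11.15, pandas 2.3.3 and scipy 1.17.1 were used. Alternatives covered pseudocounts of 1 and 0.1, centring, q below 0.01, q recomputed within a table and an FPKM minimum of 1.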

Additional observations from a re-analysis of the deposited data

How the results depend on the processing

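For the 3 fold changes of 6330527O06Rik, by which it was chosen, a kept direction is no support. A pseudocount cannot reverse a direction, and the q settings and the FPKM minimum leave a fold change as it is. Centred on the median gene, the fold changes were -1.06 in the knockdown group, 1.11 in the cytoplasmic rescue and 1.56 in the nuclear rescue. The pseudocounts and the centring give no q; under q below 0.01, q recomputed within the table and the FPKM minimum, Lamp1 and Lamp2 were not called. Lamp2 changed sign when centred on the median gene, to -0.0166 in the knockdown group and 0.0137 in the cytoplasmic rescue, each smaller than its implied error. On log2(FPKM + 1) the contrasts of 6330527O06Rik shrank, by the construction of a pseudocount on a low gene: the knockdown group stood at 59.7% of control, and the cytoplasmic and nuclear rescues at 169% and 224% of the knockdown group, where FPKM gave 48.8%, 207% and 293%. In the cytoplasmic rescue the 1 call among the list genes, Rab7, was lost (0 calls) at q below 0.01 and with q recomputed within the table. It was also lost with an FPKM minimum of 1, where q is recomputed among the genes kept. The z test between the rescues called 26 genes with the larger error alone, against 4. Of the 5 nearest genes, 1 was shared when distances were taken on log2(FPKM + 1) and 0 among protein-coding genes. No paired analysis was possible because the tables hold 1 value per group, and for the same reason no library could be left out. Depth per library is unknown, so the precision rests on the authors' errors.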
